A study of Mus musculus with 6 samples.

Results

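Cation-chloride cotransporters move chloride across the cell membrane together with sodium or potassium, and anoctamins are a family of membrane proteins that includes calcium-activated chloride channels and lipid scramblases. Described here are 9 mouse genes of these families, Slc12a2, Slc12a4, Slc12a5, Slc12a7, Slc12a9, Ano1, Ano3, Ano6 and Ano10. They were chosen by name, as every probe set that the platform annotation assigns to exactly 1 gene where that gene is one of the 9. The names were picked with earlier results of these data known. The rule gave 17 probe sets, 10 for the cotransporters and 7 for the anoctamins, out of 45029 compared. They were measured in lumbar dorsal root ganglia (DRG), clusters of sensory neuron cell bodies beside the spine, and in lumbar spinal cord (SC). The mice were male C57BL/6J animals of 3 months, and 3 arrays were hybridized for DRG and 3 for SC. Each array carried RNA of 4 mice pooled, left and right sides together, and the labels call these pools independent. All animals were of that 1 strain, and no treatment or transgene is given by the labels. Pooling leaves the variation between single mice unseen.

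The direction in which chloride flows through an open channel depends on the chloride that the cell has stored. NKCC1, the product of Slc12a2, brings chloride into cells with sodium and potassium, and the KCC transporters, which include the products of Slc12a4, Slc12a5 and Slc12a7, carry chloride out with potassium. Adult central neurons are known for high levels of KCC2, the Slc12a5 product, and for inhibition by GABA and glycine, whereas sensory neurons are known to keep chloride high and to be depolarized by GABA. In nociceptors, which sense painful stimuli, ANO1 is known as a chloride channel opened by calcium.

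Values are signals in MAS5 units, recovered from the deposited ratios and kept on the deposited scaling between arrays. Differences are DRG minus SC on log2(signal + 16), so a positive value means higher in DRG, and they were tested with limma over all probe sets. A probe set was called when its Benjamini-Hochberg adjusted p was under 0.05. Because different probe sets bind with different strength, signals of 1 probe set are compared only between tissues. For a background level, 60 probe sets of genes that neither tissue should express were taken, and the 95th percentile of their signals was used on each array. On DRG arrays it stood at 162, 226 and 145, and on SC arrays at 131, 114 and 180. Of the 43 genes behind this level, 4 were themselves called as higher in DRG and 0 as higher in SC. The shares of all genes were 32.7% and 10.2%.

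The labels of the tissues matched their marker genes. All 8 measured markers of sensory neurons were higher in DRG, with summed signals of 34941 to 36016 in DRG and 649 to 791 in SC. All 8 astrocyte markers and all 7 oligodendrocyte markers were higher in SC, with summed signals of 1271 to 1329 in DRG and 21548 to 23827 in SC for astrocytes, and of 699 to 881 in DRG and 13038 to 14392 in SC for oligodendrocytes. Of 6 markers of fibroblasts, 5 were higher in DRG, with summed signals of 14346 to 15702 in DRG and 2557 to 2836 in SC. Of 7 markers of Schwann cells and satellite glia, 5 were higher in DRG and 1 lower in DRG, with summed signals of 23578 to 24857 in DRG and 7004 to 7660 in SC. Of 9 markers of central neurons, 2 were higher in DRG and 6 lower, with summed signals of 18500 to 19849 in DRG and 20620 to 22855 in SC. Markers of skeletal muscle varied between arrays of 1 tissue, from 404 to 1547 in DRG and from 430 to 1766 in SC, and none of the 5 was called. No marker stood at a signal of 0. The part of these cell types in the results for the cotransporters and anoctamins was not tested, and in tissue RNA fewer cells of a type and less RNA per cell cannot be told apart.

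Of the 17 probe sets, 11 were called, 7 as higher in DRG and 4 as higher in SC. Of the 17, 8 were both called and at least 2-fold different on the tested scale, against 13.2% of all probe sets. Over all probe sets the called share was 32.5%, with 22.7% higher in DRG and 9.79% higher in SC. For 11 of the 17 probe sets DRG and SC arrays did not overlap, against 43.6% of all probe sets. The median difference was 0.25 over the 17 probe sets and 0.08 over all. With each gene represented by its brightest probe set, 5 of the 9 genes were called, Slc12a7, Ano3, Ano6 and Ano10 higher in DRG and Slc12a5 higher in SC, where 43% of all 18191 genes were called. Of the 17 probe sets, 9 stood above the background level in DRG and SC, 2 in DRG alone, 4 in SC alone and 2 on no array, where a probe set counts as above it if any array of the tissue is.

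**Figure D1:**
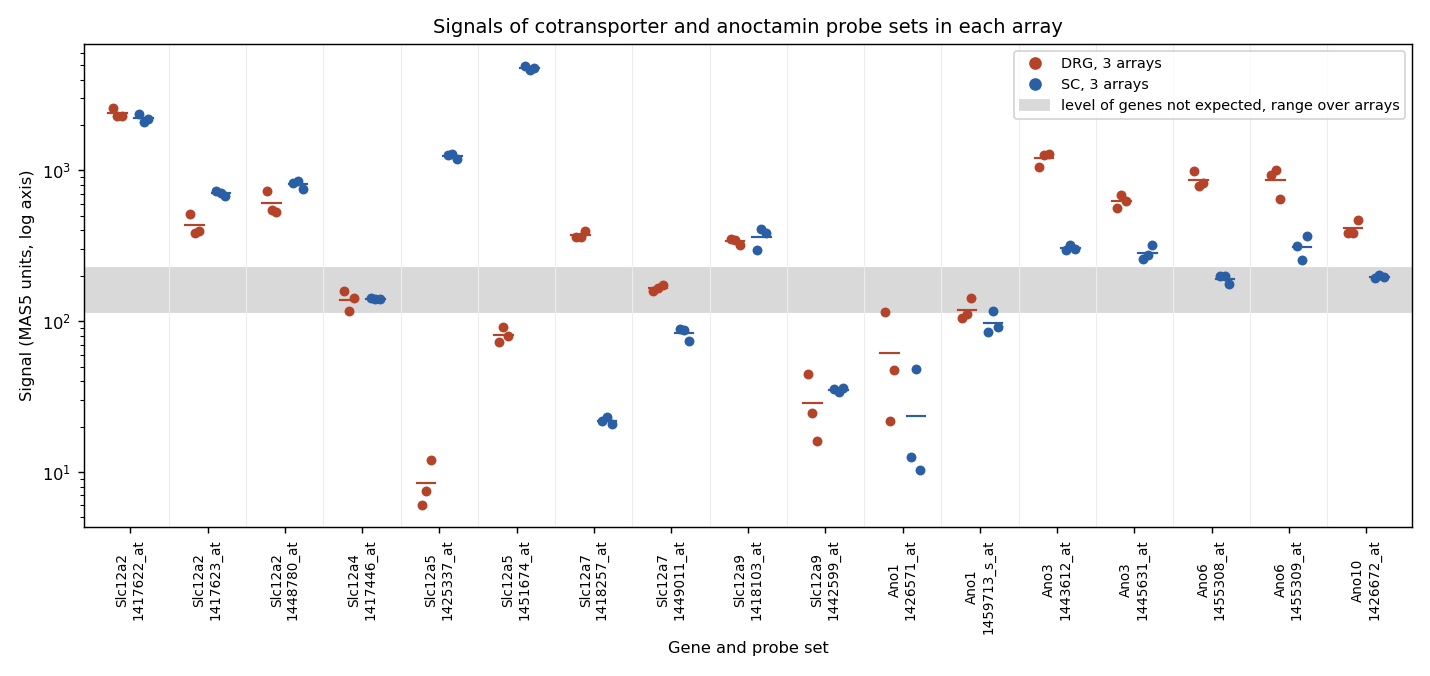
Signal of each probe set on each of the 6 arrays (log axis), with DRG in red left of SC in blue and a bar at the mean of each tissue. The grey band, labelled as the level of genes not expected, is the range over arrays of the background level, from 114 to 226. The Slc12a5 probe sets lie below it on all DRG arrays and far above it on all SC arrays, while both Ano3 and both Ano6 probe sets are higher on every DRG array than on any SC array.

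Slc12a5, the neuronal chloride extruder KCC2, had the largest difference of the 9 genes and was lower in DRG. Probe set 1451674_at had signals of 72.7, 90.9 and 79.5 in DRG, against 4921, 4628 and 4763 in SC. All 3 DRG arrays were below the background level, so DRG gave no sign of the transcript above that level. The difference was −5.63 ± 0.09 (SE, 3 arrays per tissue; limma adjusted p = 2.12e-09), with a signal at least 27.3-fold higher in SC. The second probe set, 1425337_at, was designed from the same cDNA entry and gave the same picture, with signals of 7.46 and 11.96 on DRG replicates 2 and 3, against 1263, 1290 and 1196 in SC. DRG replicate 1 stood at the lowest deposited ratio, 0.01, so its signal of 6.04 is an upper limit. The difference was −5.70 ± 0.15 (limma adjusted p = 1.32e-08), with a signal at least 7.15-fold higher in SC. The log2 ratio of 1425337_at over 1451674_at within arrays shifted by −1.38 from SC to DRG. That shift rests on DRG signals under the background level. In SC, where the gene was bright, the arrays were tight, with a coefficient of variation of 3.07% for 1451674_at and 3.86% for 1425337_at.

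By the mean squared difference over the 6 arrays after centring each gene, the 3 genes most like Slc12a5 were Klk6, at 0.0412, Slc1a2, at 0.0451, and Slc6a5, at 0.0454. Their differences between DRG and SC were −5.30, −5.81 and −5.57, against −5.63 for Slc12a5. Klk6 encodes a secreted serine protease, Slc1a2 the main glutamate transporter of astrocytes and Slc6a5 the glycine transporter of inhibitory neurons. With 2 tissues, such likeness rests mostly on the size of 1 difference.

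RefSeq lists 2 starts for Slc12a5, known to give KCC2 isoforms that differ at their amino-terminal end, and 3′ probe sets do not tell these apart. The windows from 250 bases before to 50 bases after each start are shown because Slc12a5 had the largest difference, with those of Slc12a7 and Ano3, which were higher in DRG, for comparison. The build is GRCm38.p6, and the windows are chr2:164960596-164960895 on the + strand and chr2:164967738-164968037 on the + strand for Slc12a5, chr13:73763410-73763709 on the + strand for the first Slc12a7 start and chr2:110950195-110950494 on the - strand for the first Ano3 start. Capitals mark the motifs searched on both strands, which were the GC box GGGCGG, the CCAAT box CCAAT, the TATA box TATAAA, the E-box CACGTG, the cyclic AMP response element TGACGTCA and the EGR motif GCGNGGGCG.
Slc12a5 start 1: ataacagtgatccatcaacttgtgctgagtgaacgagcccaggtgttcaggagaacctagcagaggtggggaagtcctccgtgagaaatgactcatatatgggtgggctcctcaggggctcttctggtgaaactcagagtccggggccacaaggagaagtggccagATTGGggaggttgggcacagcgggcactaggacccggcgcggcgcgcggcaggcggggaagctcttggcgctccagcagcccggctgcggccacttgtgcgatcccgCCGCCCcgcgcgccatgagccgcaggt
Slc12a5 start 2: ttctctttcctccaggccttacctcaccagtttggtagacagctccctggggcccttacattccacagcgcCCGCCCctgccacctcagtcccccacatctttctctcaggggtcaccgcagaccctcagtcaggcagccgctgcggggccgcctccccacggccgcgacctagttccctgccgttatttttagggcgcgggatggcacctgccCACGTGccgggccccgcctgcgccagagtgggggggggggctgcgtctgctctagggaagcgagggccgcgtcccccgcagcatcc
Slc12a7 start 1: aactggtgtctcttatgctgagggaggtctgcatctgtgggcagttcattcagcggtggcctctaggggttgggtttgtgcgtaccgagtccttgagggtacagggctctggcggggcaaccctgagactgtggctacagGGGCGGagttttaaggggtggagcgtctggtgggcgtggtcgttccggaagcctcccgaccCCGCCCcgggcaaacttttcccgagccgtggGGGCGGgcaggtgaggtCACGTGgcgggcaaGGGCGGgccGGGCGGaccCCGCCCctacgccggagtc
Ano3 start 1: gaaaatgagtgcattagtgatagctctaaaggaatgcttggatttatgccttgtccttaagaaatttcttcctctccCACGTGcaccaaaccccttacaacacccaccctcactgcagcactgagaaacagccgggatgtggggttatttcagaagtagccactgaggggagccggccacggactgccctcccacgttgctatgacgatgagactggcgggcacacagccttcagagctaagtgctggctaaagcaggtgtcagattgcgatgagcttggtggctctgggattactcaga

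The first Slc12a5 window held 1 GC box and 1 CCAAT box, and the second 1 GC box and 1 E-box. The Slc12a7 window held 6 GC boxes and 1 E-box, and the Ano3 window 1 E-box and no GC box. Of 32817 mouse windows of that length, 35.6% held a GC box, 37.4% a CCAAT box, 7.15% an E-box, 13.6% a TATA box, 1.79% the cyclic AMP response element and 5.56% the EGR motif. In CG dinucleotides, both Slc12a5 windows had 21, the Slc12a7 window 23 and the Ano3 window 8, where the median of all windows was 7. Windows were found for 8 of the 9 genes, 11 in all, and those of the other genes held 18 for Ano1, 19 for Slc12a9, 20 for Slc12a4, 24 for Ano10 and 29 for Ano6. The second Ano3 window, with 4, was the only one of the 11 under the median. These counts describe the sequences and were not tested against the differences between tissues.

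Slc12a2, the chloride loader NKCC1, was well above the background level in both tissues on all 3 of its probe sets, but these did not agree on a difference between tissues. The brightest, 1417622_at, had signals of 2572, 2294 and 2292 in DRG, against 2351, 2100 and 2195 in SC. The tissues overlapped, and the difference of 0.11 ± 0.08 was not called (SE, limma adjusted p = 0.364, 95% interval −0.07 to 0.28). Probe set 1417623_at had signals of 513, 385 and 395 in DRG, against 733, 711 and 671 in SC. Here all DRG arrays were below all SC arrays, and the difference of −0.70 ± 0.11 was called (limma adjusted p = 0.00103). Probe set 1448780_at had signals of 734, 549 and 532 in DRG, against 818, 855 and 753 in SC. It was also lower in DRG, by −0.42 ± 0.12 (limma adjusted p = 0.0253). In both called probe sets DRG replicate 1 was the highest of the DRG arrays.

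The size and direction for Slc12a2 moved with the scaling between arrays. The brightest probe set stood at −0.50 with quantile normalization (limma adjusted p = 0.000319) and at −0.26 without the authors' array factors (0.0187), called as lower in DRG under both, while its adjusted p over all alternatives ran from 0.000319 to 0.708. The other 2 probe sets were lower in DRG under every alternative tried, between −1.10 and −0.63 for 1417623_at and between −0.87 and −0.34 for 1448780_at. The call of 1448780_at was lost without DRG replicate 2 (limma adjusted p = 0.0798), DRG replicate 3 (0.0920), SC replicate 1 (0.0742) or SC replicate 2 (0.0907), over a range of 0.000326 to 0.112 in all alternatives. All 3 probe sets were designed from the same cDNA entry.

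Ratios of signals within 1 array do not depend on a factor applied to the whole array, such as the authors' array factors. Quantile normalization is not such a factor and can change them, and the ratios here were taken without it. The log2 ratio of 1417622_at over 1417623_at averaged 2.48 ± 0.13 in DRG and 1.65 ± 0.08 in SC (SD, n = 3 each), and no DRG array overlapped with an SC array. The probe sets of Slc12a2 thus changed unequally between the tissues, by 0.83. The log2 ratio of 1417622_at over 1448780_at averaged 1.99 ± 0.16 in DRG and 1.45 ± 0.14 in SC, which is a shift of 0.54. Set against Slc12a5 probe set 1451674_at, which was under the background level on all DRG arrays and was put at that level there, the log2 ratio of Slc12a2 was higher in DRG by at least 4.88 with 1417622_at, at least 4.05 with 1417623_at and at least 4.34 with 1448780_at. With each of the 3 Slc12a2 probe sets, the lower bound on every DRG array was above the ratio on every SC array. These ratios do not depend on the array factors either. The shifts over Slc12a5 mostly restate the difference of Slc12a5 itself, which was −5.63. By comparison, the Slc12a2 probe sets differed by 0.11, −0.70 and −0.42. The separation of the arrays in these ratios is therefore not further evidence. With 3 arrays against 3, the exact two-sided permutation test cannot go below p = 0.1, which these 5 shifts reached. They are among 12 pairs of probe sets computed. The size of a ratio within 1 tissue also holds the probe sets' binding strength, so only the shift is read.

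**Figure D2:**
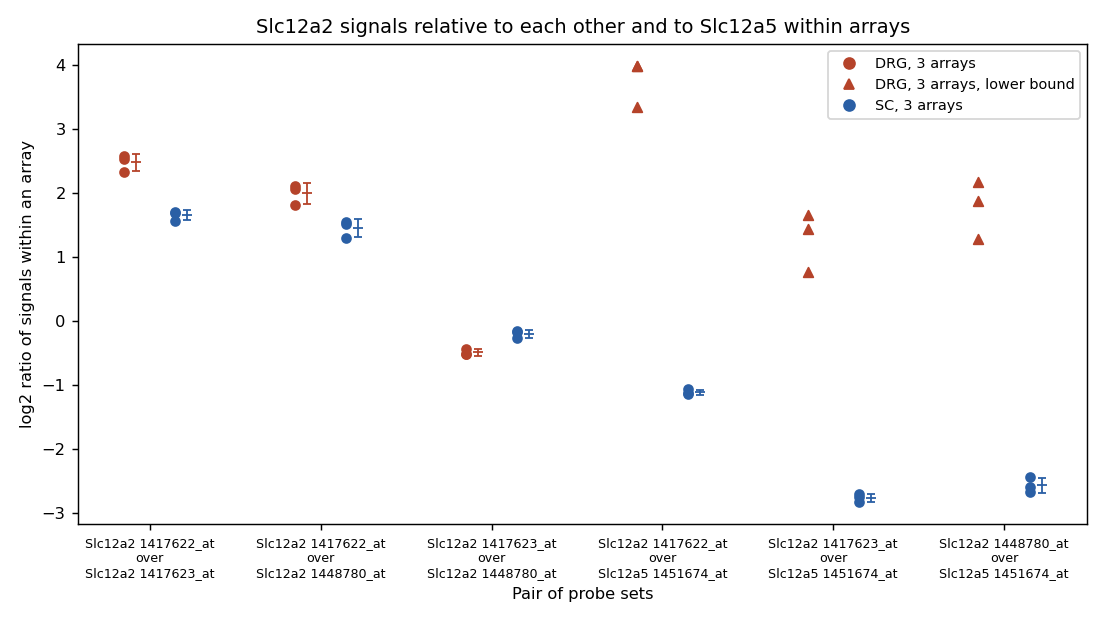
The log2 ratio of signals of pairs of probe sets within each array, with DRG in red left of SC in blue, and the mean with its SD beside the 3 arrays of a tissue. The 3 pairs on the left are among Slc12a2 probe sets and the 3 on the right set Slc12a2 over Slc12a5. For the ratios over Slc12a5, triangles are lower bounds in DRG, with no SD drawn, and the bounds lie above all SC arrays of the same pair by at least 4.05 to 4.88 on average.

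By the same measure of likeness, the 3 genes nearest to the brightest Slc12a2 probe set were Ythdc1, at 0.000307, Kif14, at 0.00046, and Brd3, at 0.000774, with differences of 0.10, 0.11 and 0.09 between DRG and SC. Since Slc12a2 differed by 0.11 itself, these likenesses rest on small movements between arrays.

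Slc12a7, which encodes the extruder KCC4, ran opposite to Slc12a5 and was higher in DRG on both of its probe sets. Probe set 1418257_at had signals of 362, 361 and 398 in DRG, against 21.7, 23.0 and 20.7 in SC. Every SC array was far below the background level, and every DRG array was above it. The difference was 3.37 ± 0.17 (SE, limma adjusted p = 5.77e-07), and the signal was at least 2.68-fold higher in DRG. Probe set 1449011_at, designed from the same cDNA entry, had signals of 159, 165 and 172 in DRG, against 88.9, 87.2 and 73.4 in SC. Its difference of 0.88 ± 0.16 was called (limma adjusted p = 0.00244), with a signal at least 1.19-fold higher in DRG. Of its DRG arrays, only replicate 3 was above the background level. The log2 ratio of 1418257_at over 1449011_at within arrays averaged 1.17 in DRG and −1.93 in SC, a shift of 3.10. The probe sets thus agreed on the direction but not on the size of the difference. In SC both were under the background level, so the size of this shift is itself uncertain.

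Slc12a4, the widely expressed extruder KCC1, was not called. Its single probe set had signals of 158, 116 and 142 in DRG, against 142, 141 and 140 in SC. The tissues overlapped, all DRG arrays were at or under the background level, and the difference was −0.03 ± 0.16 (SE, limma adjusted p = 0.925, 95% interval −0.39 to 0.33). Slc12a9 encodes a relative of the cotransporters that, in human cells, was first described as a protein interacting with them. Probe set 1418103_at had signals of 349, 347 and 318 in DRG and 297, 407 and 387 in SC, and the difference of −0.09 ± 0.13 was not called (limma adjusted p = 0.662, 95% interval −0.37 to 0.19). Before the authors' array factors, that probe set was called as lower in DRG at −0.45 (limma adjusted p = 0.0269, over a range of 0.0269 to 0.983). The second Slc12a9 probe set, 1442599_at, was below the background level on every array, with a highest signal of 44.7, and was not called at −0.25 ± 0.29.

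Among the extruders, then, Slc12a5 was lower in DRG, Slc12a7 higher in DRG, and no difference in Slc12a4 was called. The interval for the brighter Slc12a9 probe set excludes a 2-fold difference in either direction on the tested scale. For Slc12a4, at or near the background level on every array, a difference was not detectable, and the interval is not read as excluding one. The median of all probe sets was 0.08 as deposited, 0.01 with quantile normalization and −0.18 without the array factors. Single probe sets moved by more, such as the brightest of Slc12a2, from 0.11 as deposited to −0.50 with quantile normalization. Differences of such sizes, and smaller ones, have no settled direction unless they hold under the other scalings.

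**Figure D3:**
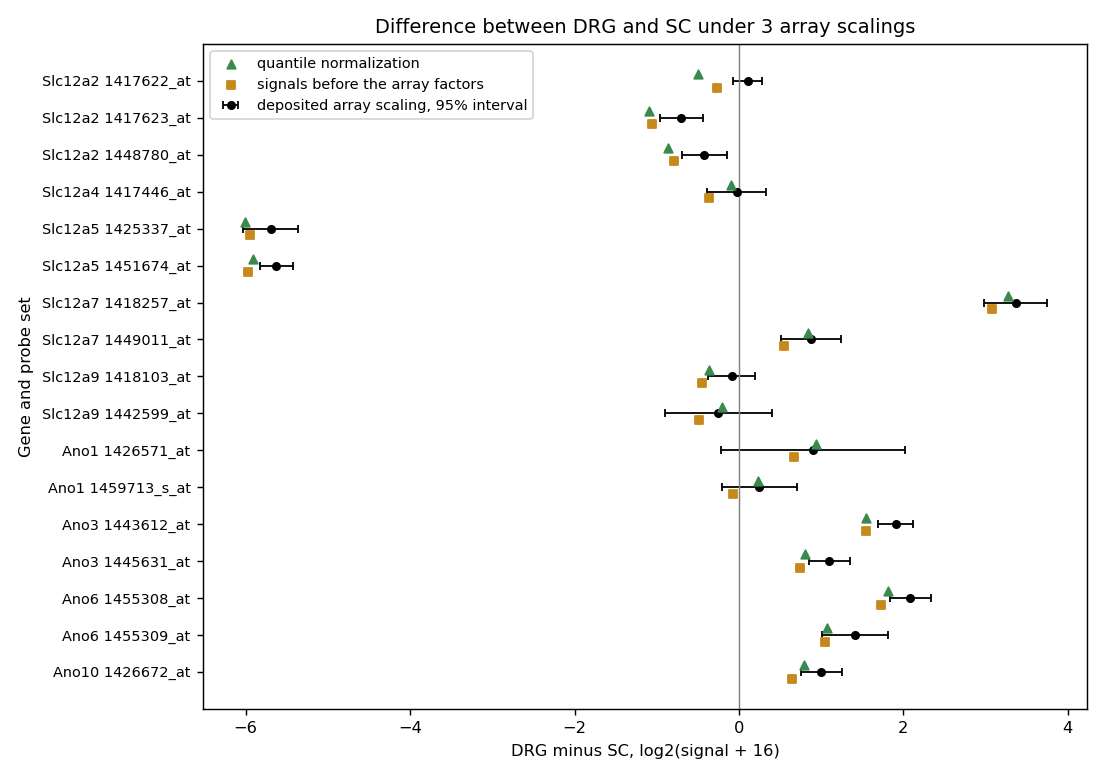
Difference DRG minus SC in log2(signal + 16) for the 17 probe sets, from top to bottom in the order of the genes. Black points are on the deposited array scaling with their 95% interval, green triangles are after quantile normalization and orange squares are before the array factors. Slc12a5 lies near −6 and Ano3, Ano6, Ano10 and Slc12a7 lie right of 0 under all 3 scalings, whereas the brightest Slc12a2 probe set crosses 0.

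Of the anoctamins, Ano3, Ano6 and Ano10 were higher in DRG on every probe set, and Ano1 was not called. Ano6, also known as TMEM16F, encodes a calcium-activated lipid scramblase that also conducts ions. Its probe set 1455308_at had signals of 988, 785 and 830 in DRG, against 199.2, 199.8 and 176 in SC. All DRG arrays were above all SC arrays, with a 4.51-fold difference in signal and a log2 difference of 2.09 ± 0.11 (SE, limma adjusted p = 7.26e-07). Probe set 1455309_at had signals of 929, 1010 and 648 in DRG, against 314, 253 and 368 in SC. The spread was wider here, with a coefficient of variation of 22.02% in DRG and 18.4% in SC, and the difference was smaller at 1.41 ± 0.18 (limma adjusted p = 0.000203), or 2.75-fold.

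Ano3 encodes an anoctamin that, in rat sensory neurons, is known to enhance the sodium-activated potassium channel encoded by Kcnt1. Probe set 1443612_at had signals of 1052, 1271 and 1277 in DRG, against 298, 320 and 303 in SC. The tissues were far apart relative to their spread, with a 3.89-fold difference in signal and a log2 difference of 1.91 ± 0.09 (SE, limma adjusted p = 5.01e-07). Probe set 1445631_at had signals of 565, 685 and 624 in DRG, against 257, 273 and 319 in SC. It was 2.21-fold higher in DRG, with a log2 difference of 1.10 ± 0.11 (limma adjusted p = 4.61e-05). Both probe sets were above the background level on all 6 arrays. The ratio of 1443612_at over 1445631_at within arrays was higher in DRG by 0.82 on the log2 scale, so the probe sets moved unequally here as well. The genes nearest to Ano3 in pattern were AI413582, at a mean squared difference of 0.00378, Cdh11, a cadherin, at 0.00399, and Atl3, a protein that shapes the endoplasmic reticulum, at 0.00575, with differences of 1.92, 1.89 and 1.95 between DRG and SC.

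Ano10 encodes an anoctamin whose mutations cause a recessive cerebellar ataxia in humans. Its single probe set had signals of 384, 386 and 469 in DRG, against 193, 201 and 197 in SC. Every DRG array was above every SC array, with a 2.08-fold difference in signal and a log2 difference of 1.00 ± 0.11 (SE, limma adjusted p = 8.63e-05). The calls of Ano3, Ano6 and Ano10 held under all alternatives tried. Their lowest differences were 1.55 and 0.74 for the probe sets of Ano3, 1.73 and 1.05 for those of Ano6 and 0.65 for Ano10.

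Ano1, the calcium-activated chloride channel of nociceptors, was dim on both of its probe sets. Probe set 1426571_at had signals of 115, 21.9 and 47.2 in DRG and 12.5, 47.8 and 10.4 in SC, all below the background level. The arrays of each tissue scattered widely, with coefficients of variation of 78.5% in DRG and 89.2% in SC, and the difference of 0.90 ± 0.49 was not called (SE, limma adjusted p = 0.216, 95% interval −0.21 to 2.02). Probe set 1459713_s_at had signals of 105, 111 and 142 in DRG and 85.0, 117 and 91.0 in SC. Only SC replicate 2 was above its background level, and the difference of 0.25 ± 0.20 was not called (limma adjusted p = 0.413, 95% interval −0.20 to 0.70). A difference in Ano1 was thus not detectable on these arrays, and the interval of the first probe set does not exclude one of 2-fold or more. The genes nearest to 1459713_s_at in pattern were Vars2, at 0.00314, Pex10, at 0.00358, and Adamts1, at 0.00539.

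Of 10 other genes of both families, 6 were measured, Slc12a1, Slc12a3, Slc12a8, Ano4, Ano8 and Ano9. Of these, limma called 0, where 43% of all genes were called. At an unadjusted p under 0.05, 1 would pass, Ano4, with signals of 254, 239 and 301 in DRG and 220, 197 and 200 in SC and a difference of 0.34 (limma adjusted p = 0.0634). It passed the test in 3 of its alternatives, among them without DRG replicate 2 (limma adjusted p = 0.0440). The Ano4 difference moved with the scaling between arrays. It was 0.17 with quantile normalization (limma adjusted p = 0.345) and −0.01 before the array factors (0.952), not called under either. Ano8 had signals of 212, 200 and 263 in DRG, against 262, 255 and 224 in SC. The other 4 genes were below the background level on all arrays. Slc12a1 and Slc12a3 are best known as the kidney's cotransporters.

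Regulators of the cotransporters differed in both directions. These are kinases of the WNK and SPAK families with their partners, phosphatases and proteins known to bind KCC2 or to act on its level. Of 20 measured genes, 14 were called, 7 toward DRG and 7 toward SC, where 32.7% of all genes were called as higher in DRG and 10.2% as higher in SC. The list's median difference was −0.02, against 0.18 over all genes. The split was 4 toward DRG and 11 toward SC after quantile normalization, and 5 and 10 before the array factors. Among all called genes, the share higher in DRG was 76.2% as deposited, 56.1% with quantile normalization and 49.1% without the array factors.

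Toward DRG the leading regulators were Nedd4l, a ubiquitin ligase, Cab39l, an adaptor known to activate SPAK and OSR1, and Bdnf, a neurotrophin known to act on KCC2 levels. Nedd4l had signals of 2010, 1882 and 1857 in DRG, against 264, 286 and 324 in SC, a difference of 2.66 ± 0.09 (SE, limma adjusted p = 2.45e-08). Cab39l differed by 1.99. Bdnf, which no SC array showed above the background level, had a signal at least 2.81-fold higher in DRG. Toward SC the leading regulators were Sgk1, a kinase induced by glucocorticoids, and the kinases Wnk2 and Wnk3. Sgk1 had signals of 357, 410 and 362 in DRG, against 2629, 2616 and 2047 in SC, a difference of −2.63 ± 0.11 (limma adjusted p = 8.96e-08). Wnk2 and Wnk3 were under the background level on all DRG arrays, and Wnk2 was at least 2.04-fold and Wnk3 at least 1.98-fold higher in SC. The kinases Stk39, which is SPAK, and Oxsr1, which is OSR1, phosphorylate the cotransporters directly and are named here after their values were seen. Stk39 was called at 0.37 (limma adjusted p = 0.0323) but stood at −0.13 after quantile normalization (0.425) and at 0.00 before the array factors (0.986). Oxsr1 was not called at 0.19 (0.322).

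Other chloride channels and transporters were called in both directions. Their list also held Tmc1, Tmc2, Xkr4, Xkr6 and Xkr8, which are not known as chloride channels or transporters. Of these, Xkr4 and Xkr6 are among the calls toward SC, and the counts and median below include all of them. Of 45 measured genes, 24 were called, 12 toward DRG and 12 toward SC, where 43% of all genes were called, 32.7% toward DRG and 10.2% toward SC. The list's median was 0.01, against 0.18 over all genes. The split was 6 and 15 after quantile normalization and 7 and 20 before the array factors. Clic1 had signals of 1964, 1718 and 2515 in DRG, against 184, 161 and 207 in SC, a difference of 3.37 ± 0.14 (SE, limma adjusted p = 1.03e-07). Lrrc8d, a subunit of volume-regulated anion channels, differed by 1.73, and Slc26a7, an anion transporter, was called toward DRG but was not above the background level in either tissue. Toward SC, Ttyh1, a membrane protein of the tweety family, had signals of 582, 430 and 563 in DRG, against 2599, 2434 and 2745 in SC, a difference of −2.28 ± 0.11 (limma adjusted p = 2.77e-07). Slc4a10, a sodium bicarbonate transporter, differed by −1.32. Xkr4, of a family of lipid scramblases, was called as lower in DRG but was under the background level on all DRG arrays and just above it on all SC arrays.

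Genes that supply calcium to anoctamins or partner with them were higher in DRG where called. Of 14 measured genes, 8 passed toward DRG and 0 toward SC, where the shares of all genes were 32.7% and 10.2%. The list's median was 1.09, against 0.18 over all genes. Of the called genes, P2ry2 and Trpm8 were not above the background level in either tissue. With quantile normalization 7 passed toward DRG and 1 toward SC, and without the array factors 8 and 1. The list was drawn up with sensory neurons in mind, so its direction is not independent evidence. Trpv1, the capsaicin receptor, whose calcium entry is known to open ANO1, had signals of 1640, 1334 and 1644 in DRG, against 86.7, 34.7 and 47.6 in SC, at least 11.01-fold higher (limma adjusted p = 3.72e-07). Trpa1, a receptor for irritants, was at least 6.33-fold higher and P2ry1, a receptor for ADP, at least 1.24-fold higher. Kcnt1, the potassium channel named with Ano3, had signals of 1030, 725 and 743 in DRG and 759, 643 and 525 in SC and was not called at 0.36 (limma adjusted p = 0.1002).

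Subunits of the chloride channels gated by GABA and glycine followed Slc12a5 in being mostly higher in SC. Of 20 measured genes, 1 passed toward DRG and 11 toward SC, where the shares of all genes were 32.7% and 10.2%. The list's median was −0.74, against 0.18 over all genes. This list too was chosen with earlier results of these data known, so its direction is not independent evidence. The split was 1 and 11 after quantile normalization and 0 and 12 before the array factors. The glycine receptor subunit Glra1 had signals of 34.6, 46.2 and 49.7 in DRG, against 1759, 1849 and 1390 in SC, at least 9.47-fold higher in SC (limma adjusted p = 1.56e-08). Glra3 was at least 1.06-fold and the GABA-A receptor subunit Gabrb1 at least 3.50-fold higher in SC. Glra4 was called higher in DRG at 1.04 but was not above the background level in either tissue, and its call was lost before the array factors (limma adjusted p = 0.0728). It was the list's 1 call toward DRG, and that count was also 0 without DRG replicate 2, without DRG replicate 3 and without SC replicate 1.

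**Figure D4:**
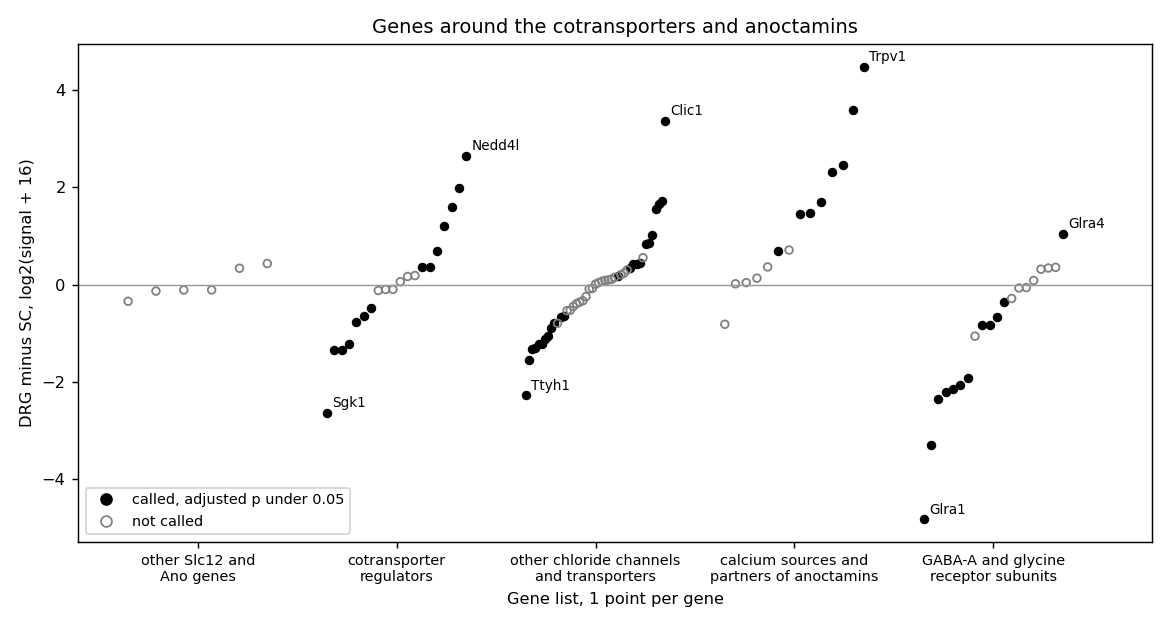
Difference DRG minus SC in log2(signal + 16) for the genes of 5 lists, 1 point per gene and sorted within a list. Filled points are called at an adjusted p under 0.05, and the called gene farthest from 0 on each side is named. None of the 6 other Slc12 and Ano genes is called. The regulators and the list of other chloride genes, which includes Tmc and Xkr genes, fall on both sides of 0. The called genes of the last 2 lists lie mostly on 1 side.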

How the data were processed

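RNA of pooled lumbar DRG and SC was measured on 6 arrays, 3 per tissue, each labelled with biotin. The submitters' processing notes name MAS5 without a version. What the authors deposited are linear ratios, whose making no source used here describes and which was therefore read from the values. In 91.8% of 45101 probe sets, the 6 deposited ratios had a median of 1 (tolerance 1e-05). In 8.21% the median was lower, and all values there were within 0.001 of a whole step. The deposited ratio was therefore taken as signal divided by an array factor and by the probe set's median. DRG arrays had factors of 84.9, 89.5 and 84.5, and SC arrays factors of 110.5, 111.9 and 112.6. Signals were recovered as the smallest values in steps of 0.1 that gave all 6 ratios, for all but 8 probe sets. Before division by the array factors, the mean signal after trimming 2% at each end already stood at 247.4 to 247.5 on every array. The factors differ by tissue, so dividing by them raised DRG relative to SC for every probe set. Of 4000 simulated probe sets, 98.2% were recovered exactly, and 1.77% came out wrong by 1 factor shared by all arrays. The limma design had been written for signals, with log2 of the deposited values as the fallback.

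Gene names came from the platform annotation, in which 34945 probe sets carry 1 gene, 932 several and 9160 none beside 64 controls. Entrez identifiers matched to RefSeq (GRCm38.p6) changed 0 symbols. The files name no build. The test was limma 3.58.1 in R 4.3.3 (lmFit, eBayes with intensity trend, two-sided, pseudocount 16) over 45029 probe sets, or over 18191 genes for lists, without a filter. In simulated data for this comparison over 45029 probe sets, 200 probe sets with a mean above the median signal were changed. Of these, 61.5% were called in the right direction when changed by 1 on the log2 scale, and 95.5% when changed by 2. Changes in dimmer probe sets were not simulated. Standard errors are limma's, and the number of arrays limits the precision. Over all probe sets, DRG arrays correlated with each other at 0.966 to 0.970, SC arrays at 0.966 to 0.969, and DRG with SC arrays at 0.891 to 0.898. Other steps ran in Python 3.11.15 with scipy 1.17.1 for the exact tests, numba 0.67.0 for the recovery, and matplotlib 3.10.9.

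A fold is the ratio of geometric mean signals. Where all arrays of 1 tissue were at or under the background level, it is a lower bound, taken against the higher of that level and the signal, and no fold is given where both tissues were under it or the bound was under 1. Named were all members, all measured relatives, up to 3 called genes per list and direction with arrays that do not overlap between tissues, and the 3 genes nearest in pattern to each of 4 members. Members and lists were chosen with earlier results of these data known. Their counts of calls, set against the shares of all genes, are therefore descriptive and not independent evidence. Alternatives were other scalings, pseudocounts, filters and summaries, the replicate number as a block, and leaving out each array.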

Additional observations from a re-analysis of the deposited data

How the results depend on the processing

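Of 261 values of single probe sets under an alternative, 252 kept their direction or stayed uncalled as on the deposited scaling, 6 lost their call, 3 gained one and 0 of the called ones reversed. The 6 losses were all of Slc12a2 probe set 1448780_at, which besides the 4 left-out arrays named above was not called without the intensity trend (limma adjusted p = 0.0950) or with the logarithm of the deposited ratio (0.112). The 3 gains were those of Slc12a2 and Slc12a9 described above. With 1 array left out, the count of called probe sets was 10 to 11, with 7 higher in DRG each time and 3 to 4 higher in SC. Quantile normalization gave 12 and signals before the array factors 13. In the fit over genes, which holds 1 probe set per gene and so only 9 of the 17, 5 were called, 4 higher in DRG and 1 higher in SC. Among genes above the median signal, where fewer genes are tested, 5 genes of the calcium list and 7 of the GABA-A and glycine receptor subunits were called. Of the other Slc12 and Ano genes, 1 was called before the array factors (Ano8, −0.48), 1 among genes above the median signal and 1 with the probe sets of a gene averaged (Ano4 in both), and 0 to 1 with 1 array left out. Replicate numbers are shared between the tissues, but the deviations of arrays with the same number did not correlate (r = −0.01, −0.02 and 0.00), so the numbers were not read as pairs, and with the replicate block 11 probe sets were called, 7 toward DRG and 4 toward SC. Over all genes the replicate block gave 7711 calls, against 7817 without it. Dim probe sets, those of Ano1 and the second of Slc12a9, are limited by signal near or under the background level.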
